A study of Mus musculus with 9 samples.

Results

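Forebrain interneuron marker genes were examined in RNA from the brain tissue of mice exposed to sevoflurane, an inhaled anesthetic. The markers were named with earlier results of these data known, and no measured value entered the rule that lists them: Pvalb, Calb2, Sst, Vip, Cort, Lhx6, Sp8, Dlx1, Dlx2 and Reln, which are 10 of the 49585 genes in the deposited table. All animals were male wildtype C57BL/6J mice, 8 to 15 weeks old. Dose is given in units of the minimum alveolar concentration (MAC), the concentration at which an inhaled anesthetic prevents movement to a painful stimulus in a standard share of subjects. Control mice received no sevoflurane and could move freely for 120 min. The 0.7 MAC group received 0.7 MAC for 120 min and breathed normally. The 2.0 MAC group received 2.0 MAC for 30 min, which induced gasping-like respiration, and then 0.7 MAC for 90 min, so its RNA was collected after a return to the lower dose. Both sevoflurane groups breathed 100% oxygen, and free movement and hyperoxia therefore differ between them and the controls together with the anesthetic. Each group had 3 libraries. The labels do not say whether each library came from its own mouse, so p-values measure the spread between libraries, which may be partly technical.

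The tissue was labelled hypothalamus. It was described as the region remaining once cortex, cerebellum and olfactory bulb had been dissected away, and it was ground whole. The extraction text in the labels names another source, the entire brain together with neurospheres, so the sources differ on what the libraries hold. The hypothalamic peptide genes Hcrt, Pmch and Oxt and the transcription factor gene Otp were detected in every library. Cortical, striatal and cerebellar genes were also detected in every library, and their levels are given beside the markers they moved with. The libraries held 5321491 to 7178568 exon-based reads (median 6382725), which are the reads assigned to the exons of 1 gene. In bulk tissue, fewer cells of a type and less RNA per cell cannot be told apart.

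Interneurons are local inhibitory neurons that release GABA. In the forebrain they arise from the ganglionic eminences of the embryo under the control of Dlx homeobox genes, and they are classified by calcium-binding proteins and neuropeptides. Cells of the medial ganglionic eminence use the transcription factor Lhx6 and become mainly parvalbumin or somatostatin cells, whereas cells of the caudal eminence include the Vip and many of the calretinin (Calb2) cells. Most of these genes are used outside the cortex too: Sst and Vip by hypothalamic neurons, Vip also by the suprachiasmatic nucleus, Pvalb by Purkinje cells and the thalamic reticular nucleus, and Reln and Calb2 by cerebellar granule cells.

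In the 2.0 MAC group, Sst, Vip, Lhx6 and Reln fell and Calb2 rose relative to the 0.7 MAC group. Relative to control, Sst and Lhx6 fell and Calb2 rose at 2.0 MAC. No marker passed the threshold between 0.7 MAC and control. Every change called was smaller than 2-fold. The 4 genes that fell are shown first by the 250 bases before their start sites, to see what their promoters share. The RefSeq sequences of build GRCm38.p6, the build of the counts, held such windows for 9 of the 10 markers (not Calb2), 14 windows in all. The windows below are chr16:23890845-23891094 on the minus strand for Sst, chr10:5638968-5639217 on the plus strand for Vip, chr2:36105409-36105658 on the minus strand for the most upstream of 3 Lhx6 starts, and chr5:22344706-22344955 on the minus strand for Reln. They are written 5′ to 3′ along the gene, and capitals mark TGACG on either strand, the core of the cyclic AMP response element.
Sst: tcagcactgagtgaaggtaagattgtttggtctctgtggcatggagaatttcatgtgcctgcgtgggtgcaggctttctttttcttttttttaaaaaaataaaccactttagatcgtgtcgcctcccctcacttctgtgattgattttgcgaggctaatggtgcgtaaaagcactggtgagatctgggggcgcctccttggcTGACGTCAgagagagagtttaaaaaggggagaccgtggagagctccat
Vip: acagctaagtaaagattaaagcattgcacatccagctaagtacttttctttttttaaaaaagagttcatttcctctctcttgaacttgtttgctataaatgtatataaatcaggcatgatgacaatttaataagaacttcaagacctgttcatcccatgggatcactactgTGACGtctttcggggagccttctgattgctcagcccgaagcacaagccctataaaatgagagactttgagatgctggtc
Lhx6: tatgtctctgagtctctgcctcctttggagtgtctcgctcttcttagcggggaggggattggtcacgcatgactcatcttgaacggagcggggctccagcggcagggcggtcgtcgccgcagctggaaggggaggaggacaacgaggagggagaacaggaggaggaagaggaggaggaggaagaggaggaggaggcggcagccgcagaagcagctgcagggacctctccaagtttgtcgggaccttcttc
Reln: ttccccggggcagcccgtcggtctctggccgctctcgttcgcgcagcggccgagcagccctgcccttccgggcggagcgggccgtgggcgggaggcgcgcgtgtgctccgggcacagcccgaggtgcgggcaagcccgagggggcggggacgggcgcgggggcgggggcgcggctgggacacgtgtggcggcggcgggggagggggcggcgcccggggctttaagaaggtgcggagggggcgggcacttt

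The Sst window held the full palindrome TGACGTCA, with its first base 48 bases before the start. This element is the textbook binding site of CREB in the somatostatin promoter. Among 32851 RefSeq windows of this length, 1.55% held it. The Vip window held TGACG, beginning 79 bases before the start, without the full palindrome. TGACG on either strand, which every full palindrome also contains, was in 17.8% of windows, and among the markers it was also found for Dlx2 and Cort. The Lhx6 and Reln windows printed here held neither. The last motif, the homeobox core TAATTA, was in 4.84% of windows and among the markers only in those of Cort and 1 of the 3 Sp8 starts. None of the 3 motifs searched was thus in the windows of all 4 genes that fell.

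The markers spanned a wide range of levels. Per exon length, as mean RPKM (reads per 1000000 mapped reads and per kilobase of exon) over 9 libraries, Sst was at 23.1, Pvalb at 17.8 and Calb2 at 17.4, and the ranges of these 3 genes over the libraries overlapped. Reln followed at 3.69 RPKM and Dlx1 at 1.02 RPKM, each separated from its neighbors in the order. The place of Dlx1 rests on total exon reads, which RPKM uses, and most of them did not enter its exon-based count. Lhx6 at 0.594, Vip at 0.579, Dlx2 at 0.342, Sp8 at 0.311 and Cort at 0.171 RPKM formed a low group in which neighboring ranges overlapped. Of the 10 markers, 9 passed the filter on low counts and were tested. Cort did not.

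**Figure D1:**
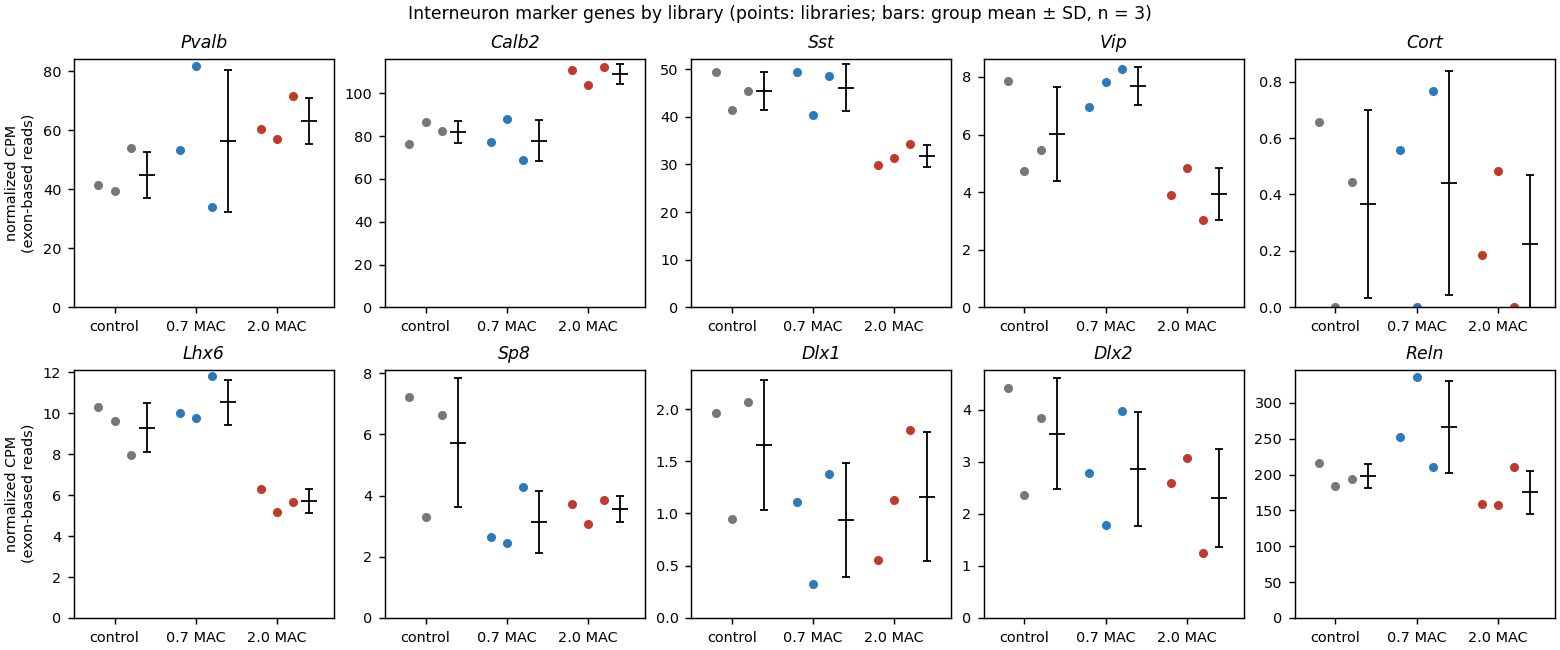
Level of each marker in every library, as exon-based counts per 1000000 after scaling (normalized CPM) on axes that start at 0. Points are libraries of control, 0.7 MAC and 2.0 MAC mice (n = 3 each) and bars the group mean ± SD. The 2.0 MAC libraries lie apart from both other groups for Calb2 (above) and for Sst and Lhx6 (below).

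Between 2.0 MAC and 0.7 MAC, edgeR's quasi-likelihood test with Benjamini-Hochberg adjustment over 14140 genes called 5 of the 9 tested markers at an adjusted p under 0.05. Of all genes tested, 14.7% were called in this comparison. By direction, 1 marker rose, where 5.98% of all genes did, and 4 fell, where 8.73% of all genes did. None of the markers was both called and changed at least 2-fold, in this comparison (1.44% of all genes) or in those of 0.7 MAC (0.325%) and 2.0 MAC (1.36%) with control. The median log2 fold change was -0.35 over the 9 markers and 0.00 over all genes. The groups did not overlap for 4 markers (Calb2, Sst, Vip and Lhx6), and for 31.3% of all genes. Both groups were under 0.7 MAC at collection and differ in the first 30 min.

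**Figure D2:**
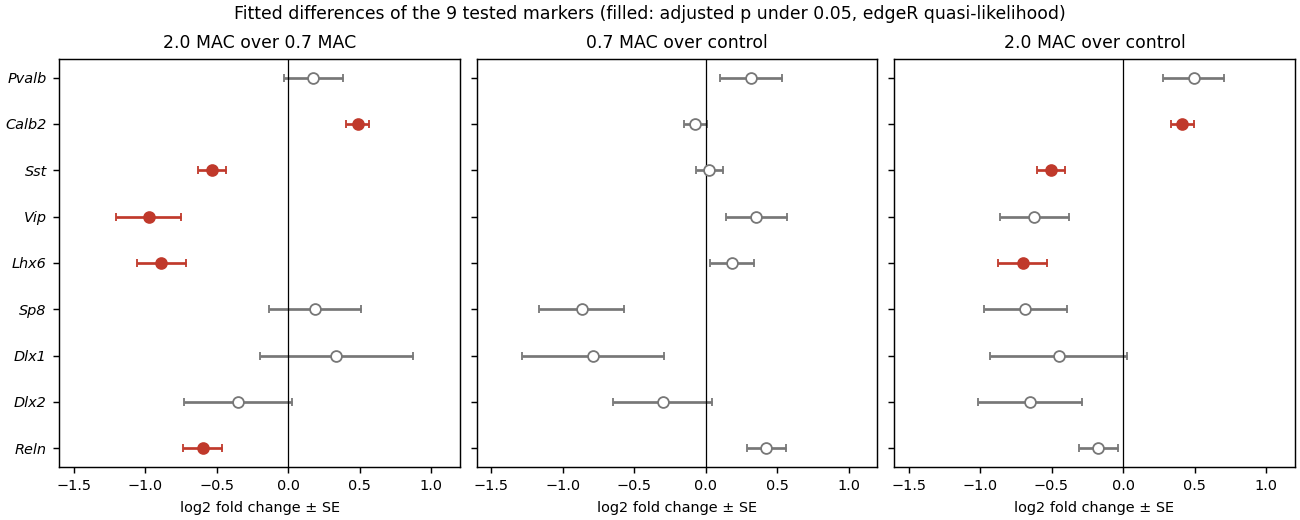
Fitted log2 fold change ± SE of the 9 tested markers in each of the 3 comparisons (n = 3 libraries per group, values right of 0 higher in the first-named group). Filled points have an adjusted p under 0.05: 5 markers in the left panel, none in the middle and 3 in the right.

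Of the 2 calcium-binding proteins, Calb2 was called in exon-based reads and Pvalb was not, and the difference between them was not tested. Calb2 encodes calretinin, a cytosolic calcium buffer. Its levels, in exon-based counts per 1000000 after scaling of the library sizes (CPM), were 111, 104 and 112 CPM in the 2.0 MAC libraries, against 77.0, 87.9 and 68.8 CPM in the 0.7 MAC libraries. The control libraries had 76.3, 86.4 and 82.5 CPM. Every 2.0 MAC library was above every library of the other groups, and the other groups overlapped each other. The fitted log2 fold change was 0.49 (SE 0.08, adjusted p = 0.000647, edgeR) over 0.7 MAC and 0.41 (SE 0.08, adjusted p = 0.00348, edgeR) over control. Both calls were kept in each of the 21 alternative analyses. Between 2.0 MAC and 0.7 MAC, genes of the thalamus, where calretinin is abundant in midline nuclei, moved with Calb2: 5 of 13 listed rose and 2 fell. Their summed level was 1614 to 1805 CPM in control, 1476 to 1512 CPM at 0.7 MAC and 1835 to 1940 CPM at 2.0 MAC. Hypothalamic genes did so too, with 8 of 14 tested genes higher and 1 lower. The sum of all 20 listed hypothalamic genes was 102 to 121 CPM in control, 85.1 to 98.6 CPM at 0.7 MAC and 142 to 151 CPM at 2.0 MAC. Of 14 tested hindbrain and midbrain genes, 11 rose and none fell. The sum of all 20 listed genes of these regions was 251 to 341 CPM in control, 233 to 250 CPM at 0.7 MAC and 398 to 425 CPM at 2.0 MAC. Oligodendrocyte genes rose in 13 of 13 cases. Their sum was 9352 to 10725 CPM in control, 7521 to 8917 CPM at 0.7 MAC and 10182 to 12266 CPM at 2.0 MAC. Of 10 astrocyte genes 6 rose and 2 fell. The astrocyte sum did not rise, at 6149 to 6749 CPM in control, 5924 to 6912 CPM at 0.7 MAC and 5614 to 5975 CPM at 2.0 MAC. Fewer of these genes rose over control. At 2.0 MAC 4 of 13 thalamic genes rose and 2 fell, and 3 of 14 hypothalamic genes rose and 1 fell. Of hindbrain and midbrain genes 5 of 14 rose, and of oligodendrocyte genes 1 of 13. At 0.7 MAC the log2 fold change of Calb2 over control was -0.07 (adjusted p = 0.749, edgeR). In that comparison 5 of 13 oligodendrocyte genes fell, where 0.743% of all genes did. The part of these tissues and cell types in the Calb2 result was not tested.

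Pvalb encodes parvalbumin, the calcium buffer of fast-spiking interneurons and of Purkinje cells. It had 60.5, 57.1 and 71.8 CPM in the 2.0 MAC libraries, against 53.3, 81.7 and 33.9 CPM in the 0.7 MAC libraries. In control it was at 41.4, 39.4 and 53.9 CPM. The 0.7 MAC libraries spanned the values of both other groups, whereas the 2.0 MAC and control libraries did not overlap. No exon-based difference of Pvalb passed the threshold: the log2 fold change was 0.18 (SE 0.21, adjusted p = 0.65, edgeR) over 0.7 MAC and 0.49 (SE 0.21, adjusted p = 0.172, edgeR) for 2.0 MAC over control. The highest and the lowest Pvalb level of the series both belonged to the 0.7 MAC group, and single libraries of that group decided the first value. Without 0.7 MAC replicate 2 it was 0.53 (adjusted p = 0.0364, edgeR), and without replicate 3 it was -0.082. The second value was called without 0.7 MAC replicate 2 (adjusted p = 0.0337, edgeR) or replicate 3 (0.0302), with the 2 groups fitted alone (0.00688) and with no filter on low counts (2.07e-06). Leaving out that filter also lowered the adjusted p of Calb2 and Reln over 0.7 MAC, to 3.9e-09 and 7.52e-21 (edgeR). The small value for Pvalb is therefore not read as stronger support.

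Reads in introns of Pvalb differed between 2.0 MAC and control. Intron reads come mostly from unspliced RNA, and they made up 58.9% to 62.0% of all gene reads in these libraries. Pvalb had 8.69, 9.42 and 9.04 intron reads per 1000000 intron reads of the library (intron CPM) in the 2.0 MAC libraries, against 4.26, 5.25 and 5.63 in the control libraries. The 0.7 MAC libraries had 6.90, 7.86 and 5.79, between both other groups and overlapping neither. Pvalb intron reads rose in the 2.0 MAC over the control group by a log2 fold change of 0.81 (SE 0.15, adjusted p = 0.00584, edgeR). This was the only call among the 4 markers with enough intron reads to test (Pvalb, Calb2, Lhx6 and Reln). For intron reads, 10% of 16142 genes tested were called in that comparison, and the Pvalb call was kept in each of its 13 alternatives. Between 2.0 MAC and 0.7 MAC the intron difference of Pvalb was 0.36 on the log2 scale (SE 0.15, adjusted p = 0.183, edgeR), where 6.86% of genes were called, and none of the 4 markers was called between 0.7 MAC and control, where 4.23% were. Intron levels of the groups did not overlap for 26.2% of genes between 2.0 MAC and 0.7 MAC, 22.3% for 0.7 MAC against control and 29.2% for 2.0 MAC against control. The Pvalb values rest on 46 to 104 intron reads per library. Intron reads of Calb2 did not pass at 2.0 MAC. Their log2 fold change was 0.32 over 0.7 MAC (adjusted p = 0.491, edgeR) and 0.33 over control (adjusted p = 0.434, edgeR).

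Among the neuropeptides, Sst fell in both comparisons with the 2.0 MAC group. Sst encodes somatostatin, an inhibitory peptide of interneurons and of the hypothalamic cells that restrain growth hormone release. Its level was 29.9, 31.3 and 34.4 CPM in the 2.0 MAC libraries, against 49.3, 40.4 and 48.6 CPM in the 0.7 MAC libraries. The control libraries had 49.3, 41.4 and 45.5 CPM, so control and 0.7 MAC overlapped and 2.0 MAC lay below both. The log2 fold change was -0.53 (SE 0.10, adjusted p = 0.00149, edgeR) over 0.7 MAC and -0.50 (SE 0.10, adjusted p = 0.0036, edgeR) over control. Between 0.7 MAC and control it was 0.03 (SE 0.09). Both calls at 2.0 MAC were kept in each of 21 alternatives.

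Vip encodes vasoactive intestinal peptide, made by disinhibitory interneurons and by the suprachiasmatic clock. It had 3.90, 4.84 and 3.04 CPM in the 2.0 MAC libraries, against 6.96, 7.83 and 8.27 CPM in the 0.7 MAC libraries. The control libraries had 7.86, 4.72 and 5.46 CPM and overlapped both sevoflurane groups. These levels rest on 21 to 54 reads per library. Vip fell between 2.0 MAC and 0.7 MAC by 0.98 on the log2 scale (SE 0.23, adjusted p = 0.00807, edgeR), the largest change among the markers called. Relative to control its log2 fold changes were -0.62 at 2.0 MAC (adjusted p = 0.126, edgeR) and 0.36 at 0.7 MAC (adjusted p = 0.458, edgeR), neither past the threshold. Of the 8 other suprachiasmatic genes tested, 2 rose and none fell between 2.0 MAC and 0.7 MAC.

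Cort encodes cortistatin, a relative of somatostatin made by a subset of cortical interneurons. Its exon-based reads numbered 4, 0 and 3 in control, 4, 0 and 5 at 0.7 MAC and 1, 3 and 0 at 2.0 MAC. Each group contained a library with no read, and the 20 reads in all did not allow a comparison.

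Lhx6 was the only transcription factor gene among the markers that was called in exon-based reads. It specifies interneurons of the medial ganglionic eminence and also marks GABA neurons of the zona incerta and hypothalamus. Its level was 6.31, 5.16 and 5.66 CPM in the 2.0 MAC libraries, against 10.03, 9.78 and 11.8 CPM in the 0.7 MAC libraries. The control libraries had 10.3, 9.60 and 7.97 CPM, so every 2.0 MAC library was below every other library. Lhx6 fell by 0.89 on the log2 scale over 0.7 MAC (SE 0.17, adjusted p = 0.00189, edgeR) and by 0.70 over control (SE 0.17, adjusted p = 0.017, edgeR). The first call was kept in all 21 alternatives. The second was lost with DESeq2 (adjusted p = 0.0602) and without control replicate 1, 2.0 MAC replicate 2 or 2.0 MAC replicate 3, with a highest adjusted p of 0.0849. Intron reads of Lhx6 did not pass at 2.0 MAC. Their log2 fold change was -0.29 over 0.7 MAC (adjusted p = 0.584, edgeR) and -0.30 over control (adjusted p = 0.514, edgeR).

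Sp8 encodes a zinc finger factor of the dorsal lateral and caudal ganglionic eminence. It had 7.21, 3.31 and 6.64 CPM in control, 2.65, 2.45 and 4.29 CPM at 0.7 MAC and 3.71, 3.07 and 3.87 CPM at 2.0 MAC. Its control replicate 2 was at the level of the sevoflurane libraries and the other control libraries were above all of them. The log2 fold change was -0.68 for 2.0 MAC over control (SE 0.29, adjusted p = 0.168, edgeR) and -0.87 for 0.7 MAC over control (SE 0.29, adjusted p = 0.151, edgeR), and neither passed. Without control replicate 2, the difference between 2.0 MAC and control was -0.96 (adjusted p = 0.0292, edgeR).

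Dlx1 and Dlx2 are neighboring homeobox genes that start interneuron development and stay on in mature cells at a low level. Dlx2 had 4.42, 2.36 and 3.84 CPM in control, 2.79, 1.79 and 3.98 CPM at 0.7 MAC and 2.60, 3.07 and 1.24 CPM at 2.0 MAC. All 3 groups overlapped, and the largest difference was -0.65 on the log2 scale for 2.0 MAC over control (SE 0.37, adjusted p = 0.315, edgeR). Dlx1 had 12, 6 and 14 exon-based reads in control, 8, 2 and 9 at 0.7 MAC and 3, 7 and 13 at 2.0 MAC. No difference of Dlx1 passed, with an adjusted p of 0.743 over 0.7 MAC and 0.644 over control for the 2.0 MAC group (edgeR).

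The counts of Dlx1 depend on the kind of reads counted. Dlx1 (chr2:71528113-71533981) lies within Dlx1as (chr2:71516454-71537891), its antisense transcript. Only 74 of 946 exon reads of Dlx1, 7.82% (95% Wilson interval 6.28% to 9.71%, counting error only), entered its exon-based count, against 100% for the 8 markers other than Dlx1 and Reln and 96.5% for Reln. Dlx1as had 91 total exon reads and 519 total gene reads over the 9 libraries, fewer than the 946 exon reads of Dlx1. Why most exon reads of Dlx1 did not enter its exon-based count was not tested. Total exon reads of Dlx1 were 135, 88 and 143 in control, 109, 97 and 101 at 0.7 MAC and 68, 94 and 111 at 2.0 MAC. The groups overlapped in that count too. The log2 fold change between 2.0 MAC and 0.7 MAC was 0.34 with exon-based reads and -0.10 with total exon reads, and no direction can be given. The library kit kept the strand. Whether the counting used it could not be read from the sources used here, so reads of Dlx1 and Dlx1as may not be separated.

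**Figure D3:**
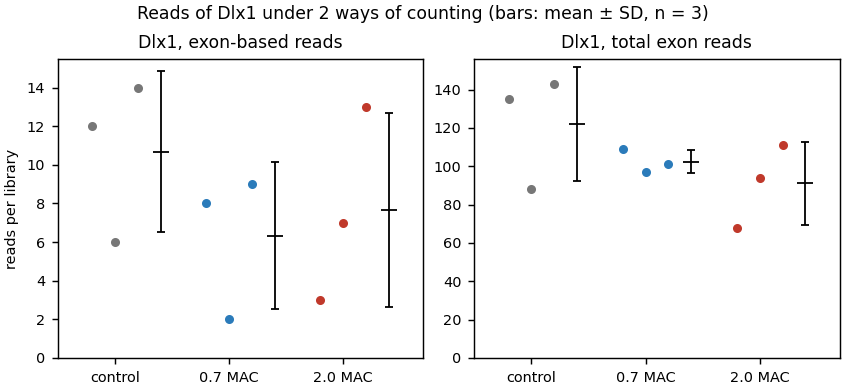
Reads of Dlx1 in each library of control, 0.7 MAC and 2.0 MAC mice as exon-based reads (left) and as total exon reads (right), on separate axes that start at 0. Bars are the mean ± SD (n = 3). The left panel holds 74 reads in all and the right panel 946, and the groups overlap in both.

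Reln encodes reelin, a secreted matrix protein that guides neuronal layering and is made in the adult by interneurons and by cerebellar granule cells. It had 158, 158 and 210 CPM in the 2.0 MAC libraries, against 253, 337 and 210 CPM in the 0.7 MAC libraries. The control libraries had 217, 184 and 194 CPM. The 0.7 MAC replicate 3 and the 2.0 MAC replicate 3 were at nearly the same level, so those groups touched. Reln fell by 0.60 on the log2 scale between 2.0 MAC and 0.7 MAC (SE 0.14, adjusted p = 0.00615, edgeR). The call was lost with total gene reads (adjusted p = 0.0579) and with limma on log2 RPKM (adjusted p of 0.0555 and 0.0578). Reln did not pass for 0.7 MAC over control at 0.42 (SE 0.13, adjusted p = 0.125, edgeR) or for 2.0 MAC over control at -0.17 (SE 0.14, adjusted p = 0.508, edgeR). In the first 2 comparisons its intron reads gave differences of the same sign that did not pass: -0.83 on the log2 scale for 2.0 MAC over 0.7 MAC (adjusted p = 0.0887, edgeR) and 0.88 for 0.7 MAC over control (adjusted p = 0.0905, edgeR). For 2.0 MAC over control the intron difference was 0.04 (adjusted p = 0.944, edgeR), opposite in sign to the exon-based value.

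Cerebellar genes varied between libraries of the same group. The summed level of 16 cerebellar genes was 829 to 1044 CPM in control, 1661, 2797 and 1053 CPM at 0.7 MAC and 809, 773 and 1540 CPM at 2.0 MAC. The 0.7 MAC replicate 2, which had the most cerebellar RNA, also had the highest Reln and the highest Pvalb level. Fat2, an adhesion gene of granule cells, was at 312 CPM in that library and at 8.89 CPM in 0.7 MAC replicate 3. Gabra6, the granule cell GABA-A receptor subunit, was at 68.6 CPM and 0.460 CPM in the same libraries, and no defining cerebellar marker was at 0 in any library. The summed level of 2.0 MAC replicates 1 and 2 was no higher than in control, but defining cerebellar markers were higher. The cerebellar gene Cbln3 was at 24.5 and 13.4 CPM there and at 2.29, 2.05 and 4.87 CPM in control. Fat2 was at 42.5 and 37.1 CPM there, against 9.01, 8.97 and 17.6 CPM in control. Gabra6 and Pcp2 were also above every control in both libraries. Between 0.7 MAC and control, 4 of 15 tested cerebellar genes rose and none fell, where 0.884% of all genes rose and 0.743% fell. Between 2.0 MAC and 0.7 MAC none of them rose and 1 fell, and between 2.0 MAC and control 1 rose and none fell. Their median log2 fold changes were 0.87, -0.53 and 1.12 in these 3 comparisons.

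The markers were therefore compared again without the 3 libraries highest in cerebellar genes (0.7 MAC replicates 1 and 2 and 2.0 MAC replicate 3), a comparison added after the data had been seen. It leaves 1 library at 0.7 MAC, which is assumed to vary like the others, and 9.53% of all genes were called over 0.7 MAC, 8.52% for 2.0 MAC over control and 0.295% for 0.7 MAC over control. Against that library Reln fell at 2.0 MAC by 0.40 on the log2 scale (adjusted p = 0.00986, edgeR), and fell relative to control by 0.32 (adjusted p = 0.00768, edgeR). Its difference between 0.7 MAC and control dropped to 0.08 (adjusted p = 0.84, edgeR). The remaining 0.7 MAC library had the lowest Pvalb level of the series, so the Pvalb difference of 0.81 over 0.7 MAC follows from which library was kept. Over control, where 2 libraries at 2.0 MAC met all 3 controls, the log2 fold change of Pvalb was 0.39. Both of those 2.0 MAC libraries were still above every control in Cbln3 (24.5 and 13.4 CPM against 4.87 CPM or less). In Fat2 they were too (42.5 and 37.1 CPM against 17.6 CPM or less). This fit thus did not level cerebellar RNA between 2.0 MAC and control, and its part in the Pvalb value was not tested. Sst, Lhx6 and Calb2 kept their calls over 0.7 MAC. Vip did not, with a difference of -0.90 (adjusted p = 0.105, edgeR), nor did Lhx6 over control (adjusted p = 0.0534, edgeR).

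**Figure D4:**
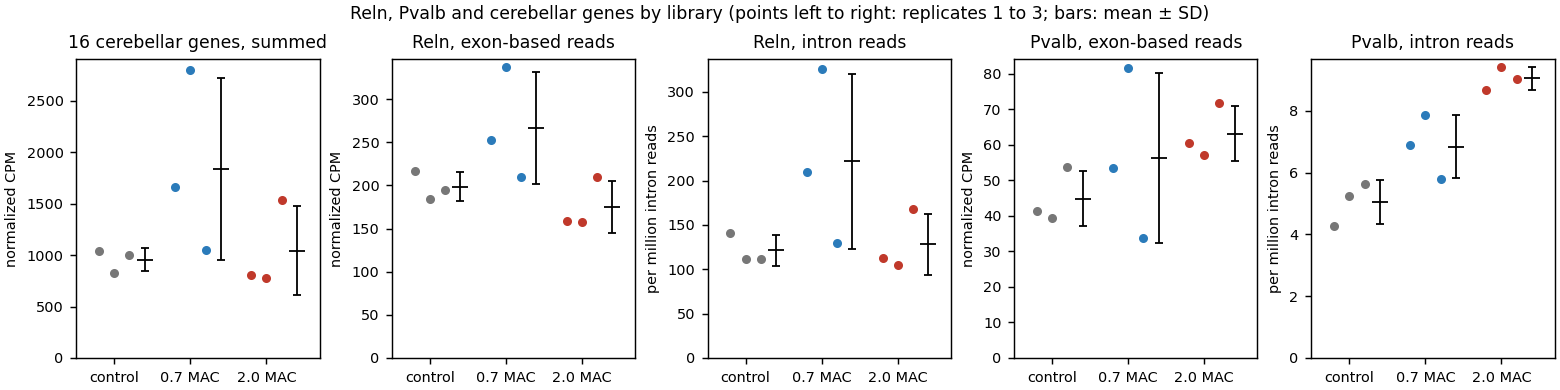
Summed level of 16 cerebellar genes, and Reln and Pvalb as exon-based reads (normalized CPM) and as intron reads (intron CPM), in each library of control, 0.7 MAC and 2.0 MAC mice. Points run from replicate 1 to 3 and bars are the mean ± SD (n = 3). The 0.7 MAC replicate 2 is highest for cerebellar genes (2797 CPM) and for Reln in both kinds of reads (337 CPM and 326 intron CPM), whereas Pvalb intron reads are highest in the 2.0 MAC group.

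Between 0.7 MAC and control none of the 9 tested markers was called with edgeR, where 1.63% of all genes were. At an unadjusted p under 0.05, edgeR gave 2 markers, Reln and Sp8, where 15.5% of all genes were under it. The median log2 fold change over the markers was 0.03. The groups overlapped for each of the 9 markers and did not overlap for 18.0% of all genes. DESeq2 called none either, where it called 1.61% of all genes. Without 0.7 MAC replicate 3, which was low in cerebellar genes, Pvalb and Reln were called, and 3.71% of all genes were.

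Between 2.0 MAC and control 3 of the 9 tested markers were called, where 9.78% of all genes were. By direction, Calb2 rose (3.36% of all genes rose) and Sst and Lhx6 fell (6.42% of all genes fell). The groups did not overlap for Calb2, Sst, Lhx6 and Pvalb, and for 28.3% of all genes. The median over the markers was -0.50 on the log2 scale. Both comparisons with control use the same control libraries and are not independent of each other.

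The markers were also set against the general GABA neuron genes of the same library, which needs no scaling between libraries. Gad1 and Gad2 make GABA and Slc32a1 loads it into vesicles. Their summed counts served as the denominator for the 7 markers with at least 10 reads in every library, and the 3 groups were compared by an exact permutation test over the 280 divisions of the 9 libraries (smallest possible p = 0.00357). Of the 7 markers, 1 passed after adjustment over these 7, Lhx6. The ratio was taken for the markers only, so this count and the overlap of groups have no share over all genes beside them. Per 1000 GABA gene reads Lhx6 had 10.1, 8.92 and 8.13 reads in control, 11.0, 10.8 and 12.1 at 0.7 MAC and 6.65, 5.60 and 6.21 at 2.0 MAC. The 3 groups did not overlap, with 2.0 MAC lowest and 0.7 MAC highest (exact permutation p = 0.00357, adjusted p = 0.025). Sst, Vip and Calb2 each had an adjusted p of exactly 0.05 in this exact test, which is not under the threshold. Calb2 had 117, 112 and 123 reads per 1000 GABA gene reads at 2.0 MAC, against 84.6, 97.0 and 70.7 at 0.7 MAC, and Sst had 31.5, 34.0 and 37.7 at 2.0 MAC, against 54.2, 44.6 and 49.9 at 0.7 MAC. The 4 pan-GABA genes summed to 1518 to 1654 CPM in control, 1441 to 1535 CPM at 0.7 MAC and 1481 to 1565 CPM at 2.0 MAC, and of these 4 genes only Slc32a1 was called between 2.0 MAC and 0.7 MAC, at 0.23 on the log2 scale (adjusted p = 0.0174, edgeR). That call was lost in 5 of 21 alternatives, 4 of them with a single library left out (0.7 MAC replicate 1 or 2, or 2.0 MAC replicate 1 or 3, adjusted p of 0.0502 to 0.064). Gad1, part of the denominator, fell for 2.0 MAC over control by 0.22 (adjusted p = 0.00737, edgeR), a call kept in 19 of 21 alternatives and lost in both with limma.

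**Figure D5:**
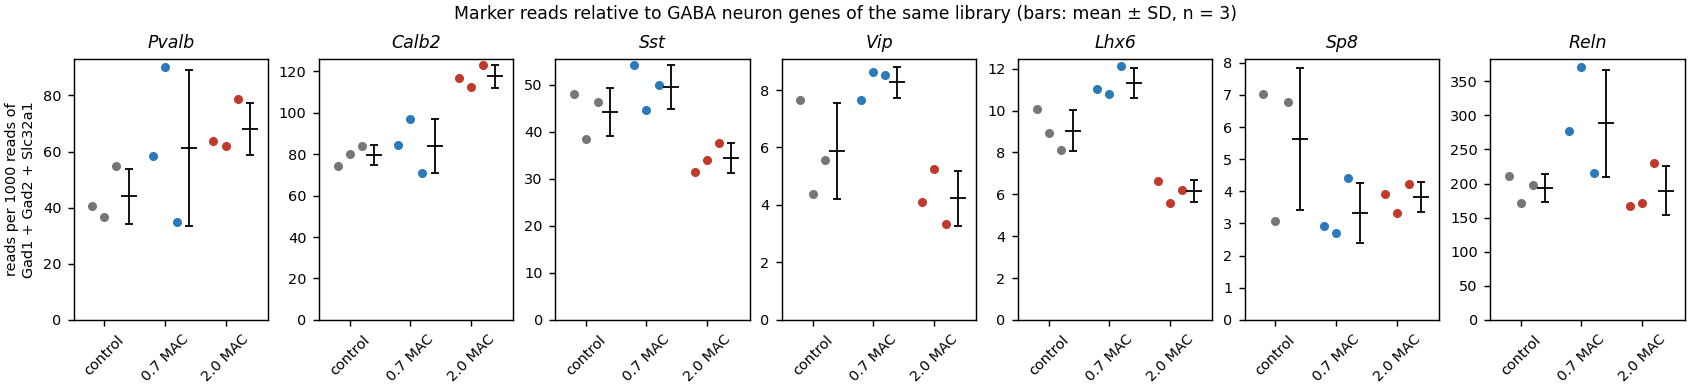
Reads of the 7 markers with at least 10 reads in every library, per 1000 reads of Gad1, Gad2 and Slc32a1 in the same library, for control, 0.7 MAC and 2.0 MAC mice on axes that start at 0. Points are libraries and bars the mean ± SD (n = 3). Lhx6 is lowest in the 2.0 MAC group (5.60 to 6.65) and highest at 0.7 MAC (10.8 to 12.1).

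Genes of forebrain regions moved with the markers that fell. Between 2.0 MAC and 0.7 MAC, 15 of 20 listed cortical and hippocampal excitatory neuron genes fell and 1 rose, with a summed level of 2223 to 3200 CPM in control, 2775 to 3595 CPM at 0.7 MAC and 1300 to 1547 CPM at 2.0 MAC. Of 16 striatal genes, 15 fell and none rose, with sums of 1789 to 2198 CPM in control, 1411 to 2208 CPM at 0.7 MAC and 807 to 925 CPM at 2.0 MAC. The cortical factor gene Tbr1 was at 3.71 to 6.08 CPM in the 2.0 MAC libraries and at 30.4 to 50.2 CPM in the 0.7 MAC libraries, and no defining cortical or striatal marker was at 0. The median log2 fold changes were -1.45 for the cortical list and -1.14 for the striatal list, beside -0.53 for Sst, -0.89 for Lhx6 and -0.98 for Vip. The part of the tissue taken in the fall of Sst, Vip, Lhx6 and Reln was not tested.

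Other genes of interneuron classes were mixed. Of 21 tested genes of medial eminence interneurons, 5 fell and none rose between 2.0 MAC and 0.7 MAC, with a median log2 fold change of -0.15. The 3 with the smallest adjusted p were Mef2c, a transcription factor gene also listed as cortical (-1.52), Satb1, a chromatin organizer that matures somatostatin cells (-0.48), and Crhbp, which binds corticotropin-releasing hormone (-0.84). Npy, also on the hypothalamic list (-0.92), and Tac1, also on the striatal and thalamic lists (-0.50), fell as well. Satb1 and Crhbp lost their calls without the 3 libraries highest in cerebellar genes (adjusted p of 0.0789 and 0.176). Of 16 genes of caudal eminence interneurons, 2 rose and 4 fell, with a median of 0.09. Cnr1, the cannabinoid receptor of cholecystokinin cells, fell by 0.74 and Cck, the cholecystokinin gene, by 0.98, whereas the nicotinic receptor subunit gene Chrna4 rose by 0.51. Of 10 genes of the Dlx pathway, 1 rose and 4 fell, with a median of -0.45. Zfhx3 rose by 0.53, and Etv1 and Dlx5 had log2 fold changes of -0.60 and -0.93. Dlx5, a target of Dlx1 and Dlx2, was near the threshold (adjusted p = 0.0428, edgeR) and kept its call in 9 of 20 alternatives. It was lost with DESeq2 (adjusted p = 0.128) and without 0.7 MAC replicate 1 or 3, 2.0 MAC replicate 2 or 3, or control replicate 2 or 3 (adjusted p up to 0.186).

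Receptors and partners of the marker proteins were also counted. Of 7 tested genes listed as peptide receptors, 2 rose and 2 fell between 2.0 MAC and 0.7 MAC. No tested Sstr or Vipr gene, those of the somatostatin and Vip receptors, was called higher. Vipr1, a Vip receptor, had a log2 fold change of -1.97 (SE 0.29, adjusted p = 0.000222, edgeR) and Sstr4, a somatostatin receptor, one of -1.31 (SE 0.25, adjusted p = 0.00204, edgeR), whereas Ghsr, the ghrelin receptor that cortistatin can bind, rose by 1.35 (SE 0.35, adjusted p = 0.0138, edgeR). The Ghsr call was lost without 0.7 MAC replicate 1 or 3, 2.0 MAC replicate 1 or 2, or the 3 libraries highest in cerebellar genes (adjusted p of 0.0511 to 0.0585). Of 11 genes of the reelin pathway, 2 rose and 1 fell. The gene that fell was Dab1, the intracellular adaptor of reelin signaling, at -0.63 (SE 0.07, adjusted p = 2.67e-05, edgeR), and those that rose were Adamts4, a protease that cleaves reelin (0.40), and the integrin gene Itga3 (0.32). The Adamts4 call was lost without 0.7 MAC replicate 1 (adjusted p = 0.0536) or the 3 cerebellar-high libraries (0.256), and the Itga3 call without 0.7 MAC replicate 3, 2.0 MAC replicate 1 or 2.0 MAC replicate 3 (adjusted p up to 0.0966). Of 12 other calcium-binding protein genes, 1 rose and 6 fell. The hippocalcin gene Hpca fell by 1.37 and its relative Hpcal4 by 1.33, and the glial gene S100b rose by 0.63.

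The markers also varied together across the 9 libraries, which is given as a description since the libraries share groups. The Pearson correlation of log2 CPM was 0.88 between Sst and Lhx6, 0.83 between Vip and Lhx6 and 0.76 between Sst and Vip. Calb2 ran opposite to these genes, with -0.94 to Sst, -0.91 to Lhx6 and -0.87 to Vip. Reln and Pvalb had 0.33. Over the 9 libraries, the tested gene most like Lhx6 was Galnt18 (0.99), that most like Sst was Dyrk2 (0.98), that most like Vip was Zfp697 (0.99), that most like Calb2 was Aldoc (0.97), and that most like Pvalb was 3632451O06Rik (0.98). The pair most like Reln was Mpp3 (0.99) and Itpr1 (0.98), the second a calcium channel gene on the cerebellar list. Itpr1 did not follow that list throughout. For 2.0 MAC over control its log2 fold change was -0.35, where the median of the list was 1.12.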

How the data were processed

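Per the study's methods, the authors used CLC Genomics Workbench to align reads (GRCm38/mm10, also named in the submitters' processing notes), to obtain counts and to calculate RPKM. Libraries were depleted of ribosomal RNA and made with a directional kit. For the annotation release and strand setting, nothing was given in the sources used here. Values in the deposited table are whole-number counts and RPKM. Exon-based reads were the main counts, and deposited total exon, intron and gene reads were used beside them. Deposited RPKM equals total exon reads per exon length and mapped reads, and so keeps exon reads outside the exon-based count. The table also holds the authors' own fold changes and p-values, which were not used. It has 198 columns of per-library values, and 150 were not used.

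Counts were analyzed in edgeR 4.0.16 (R 4.3.3) with filterByExpr at a minimum count of 10, TMM scaling and all 9 libraries fitted together with the group as the only factor. The quasi-likelihood test was used for 3 pairwise contrasts, Benjamini-Hochberg adjusted over all genes tested. The fit was tested on simulated data. Intron reads were taken from the table's own column rather than as gene reads less exon-based reads, which was run as an alternative. Normalized CPM use TMM-scaled library sizes. Library depths were 14458778 to 20032516 total gene reads. Similar genes were ranked by Pearson correlation among tested genes whose mean was 1 CPM or more. Alternatives were DESeq2 1.42.0, other scalings and filters, other read columns, limma 3.58.1 on log2(RPKM + 0.1) and log2(RPKM + 1), a replicate block, the 2 groups alone and each library left out. Named genes were all markers, the overlapping and GABA genes, the 3 genes of each list with the smallest adjusted p and the genes most like each marker. Region genes named by level were chosen after their values were seen. The markers, lists and tests were chosen with earlier results of these data known.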

Additional observations from a re-analysis of the deposited data

How the results depend on the processing

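Each library left out in turn gave 5 to 6 called markers for 2.0 MAC over 0.7 MAC, 0 to 2 for 0.7 MAC over control and 2 to 4 for 2.0 MAC over control, where 9.5% to 14.9%, 0.349% to 3.71% and 4.85% to 11.2% of all genes were called in those 3 comparisons. Without a filter on low counts, 3 markers (Pvalb, Reln and Sp8) were called between 0.7 MAC and control, against none with it, and 4.07% of all genes were, against 1.63% with it. For intron reads without a filter, 1 marker (Reln) was called for 2.0 MAC over 0.7 MAC, 1 (Reln) for 0.7 MAC over control and 2 (Pvalb and Cort) for 2.0 MAC over control (6.41%, 5.49% and 7.97% of all genes), and leaving out libraries gave 0 to 1 in each of the first 2 comparisons. Relative to GABA neuron genes, 4 markers (Sst, Vip, Calb2 and Lhx6) passed with total gene reads, against 1 with exon-based reads. No share over all genes was computed for that ratio. The cause of these changes was not tested.

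Some small differences turned direction. Dlx1 between 2.0 MAC and 0.7 MAC was -0.060 on the log2 scale with total gene reads, -0.10 with total exon reads, -0.013 and -0.0059 with limma at a pseudocount of 0.1 and 1, and -0.66 without the 3 libraries highest in cerebellar genes. Without those 3 libraries, Sp8 between 2.0 MAC and 0.7 MAC was -0.34, Pvalb and Dlx2 between 0.7 MAC and control were -0.42 and 0.17, and Reln intron reads between 2.0 MAC and control were -0.21. Sst between 0.7 MAC and control was -0.00036 and -0.00017 with limma at those pseudocounts. With each library left out in turn, the log2 fold change of Pvalb was -0.082 to 0.53 and of Dlx1 -0.15 to 0.68 for 2.0 MAC over 0.7 MAC. For 0.7 MAC over control it was -0.038 to 0.58 for Pvalb, -0.036 to 0.11 for Sst and -0.16 to 0.0088 for Calb2, and that of Reln intron reads between 2.0 MAC and control was -0.20 to 0.19.

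No pair of same-numbered libraries deviated together: the correlations of their deviations from the group means were -0.21 to -6.8e-05. With the replicate number as a block, edgeR called 5, 0 and 3 markers in the 3 comparisons, the same counts as without the block. Of all genes, 12.5%, 0.537% and 8.0% were called with the block, against 14.7%, 1.63% and 9.78% without it. Depth bounds what the counts can show for Cort, with 20 reads in all. The SE of the log2 fold changes was 0.34 to 0.53 for Dlx1 and Dlx2, the tested markers with the fewest exon-based reads (74 and 167). It was 0.21 for Pvalb with 3173 reads and 0.09 to 0.10 for Sst with 2395, so it did not follow the number of reads alone.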
